A study of Homo sapiens with 10 samples.

Results

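Replicate number set the 4 libraries of the second set apart more than the vector did. The set holds replicates 4 and 5 of each vector, that is 4 of the 10 libraries of the study, and replicate 5 (EV and OE) was compared with replicate 4 (EV and OE), 2 libraries against 2, with the vector as a term. All libraries come from TPC-1, a long-established line of human papillary thyroid carcinoma cells with the RET/PTC1 fusion. The line received either an empty vector (EV) or an overexpression vector (OE) for the long non-coding RNA PTCSC3-AS1. Each replicate number therefore holds 1 EV and 1 OE library, and no group is free of a vector. Replicates 1 to 3 of each vector stand in another deposited table and are called the first set. The sources used here speak of pairs but do not say what replicates 4 and 5 differ in, such as day, culture, passage or plate, nor whether the replicates were separate cultures. The p-values therefore speak only of how far these 4 libraries scatter, in part perhaps for technical reasons.

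The groups of genes below have well-known controls. Cells sense cholesterol in the endoplasmic reticulum, where INSIG proteins hold back the transcription factors SREBF1 and SREBF2, which drive the genes of sterol and fatty acid synthesis when sterol runs low. The p53 protein turns on cell cycle inhibitors, DNA repair genes and pro-apoptotic genes. Immediate-early genes such as FOS and EGR1 respond within minutes to serum, growth factors or stress through ERK signalling, which RET fusions feed, and their RNA is short-lived. Interferon-stimulated genes follow STAT2 and IRF factors after interferon or cytosolic nucleic acid is sensed.

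The second-set libraries held 15761474 to 17290802 counts and 20769 to 21330 detected genes, and levels are given in CPM (reads per library size, with TMM factors). The floor for a gene without reads, 3 counts, lay at 0.174 to 0.19 CPM. The share of counts from mitochondrial ribosomal RNA was higher in replicate 4 (0.839% in EV and 0.772% in OE) than in replicate 5 (0.651% and 0.612%). The keratins KRT8 and KRT18 and the thyroid factor PAX8 were abundant in all 10 libraries (82.2 to 162, 224 to 307 and 358 to 478 CPM), while KRT19, EPCAM, CDH1 and TG lay between 0 and 1.37 CPM, and TSHR, SLC5A5 and NKX2-1 had 0 counts in each. The summed level of the 12 leukocyte markers was 1.79 to 2.32 CPM in the second set, with PTPRC near 0, that of the 10 fibroblast markers 7.55 to 9.72 CPM, and that of the 10 endothelial markers 9.28 to 11.4 CPM. In bulk RNA, fewer cells of a type and less RNA per cell cannot be told apart.

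Of 14419 genes tested, 2074 passed an adjusted p of 0.05 (14.4%), with 1050 higher in replicate 5 (7.28%) and 1024 lower (7.1%). The differences were mostly small, with a median size of 0.33 on the log2 scale among the called genes and 69 higher and 120 lower past 2-fold. Only 2 of the higher genes but 81 of the lower ones were on the lists of interferon response, nucleic acid sensing, antigen presentation and interferon signalling, which leaves 1048 higher and 943 lower genes outside them. The vector, tested in the same fit, had 71 called genes (0.492%). Of the 2074 genes, 2049 differed in the same direction within EV and within OE, against 66% of all tested genes. The call rests on both vectors together and so favours genes whose directions agree.

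The test shares 1 estimate of the spread over genes of like abundance, since each gene has 1 residual degree of freedom, and 2 against 2 libraries cannot give an exact permutation p below 0.3333 for a single gene. With the spread of all 10 libraries, 39 genes were called higher and 57 lower, all of them among the 2074 and with the same sign. Of these, 39 higher and 24 lower lay outside the interferon lists. DESeq2 called 200 higher and 176 lower on the 4 libraries, again all among the 2074. Leaving out 1 of the 4 libraries leaves the comparison to the other vector alone, 1 library against 1. With the spread of all libraries, few or no genes were then called.

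Across genes, the difference measured within EV (EV replicate 5 minus EV replicate 4) went with that measured within OE, which shares no library with it. Pearson's r was 0.70 over 6322 genes with a mean log2 CPM of at least 5, 0.46 over 12176 genes with at least 1, and 0.32 over all 14419, where low counts add noise. Genes are not independent replicates, and the pairs may share a batch. Among the abundant genes 72.4% of the variance over the 4 libraries lay with replicate number and 14.9% with the vector. The shares were 57.2% and 21.8% over the genes with at least 1, and 49.5% and 25.1% over all tested genes. Counts of the 2 replicate-4 libraries differed by a chi-square of 4.68 per degree of freedom and those of the 2 replicate-5 libraries by 3.63, against 11.2 between EV replicates 4 and 5 and 12.6 between OE replicates 4 and 5.

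**Figure D1:**
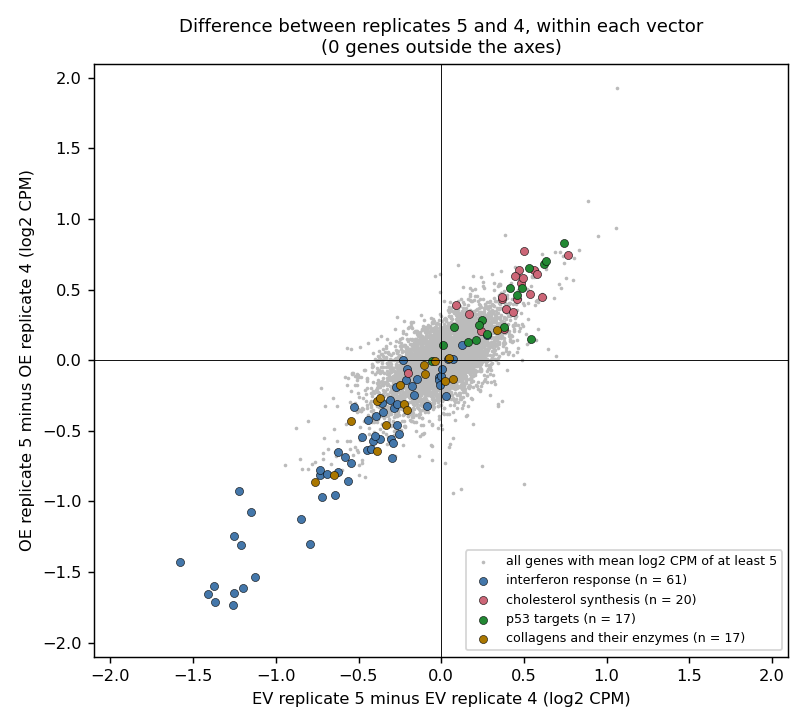
Each point is a gene with a mean log2 CPM of at least 5, placed by its log2 CPM difference between replicates 5 and 4 in EV cells (x axis) and in OE cells (y axis), with members of 4 lists in colour. The points lie along the diagonal (r = 0.70), with interferon genes at the lower left and cholesterol synthesis genes and p53 targets at the upper right.

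Whether the change differed between EV and OE was tested gene by gene. An interaction term, with the spread taken from the first set, called 0 of 16434 genes (0%), while 224 had an unadjusted p under 0.05, DESeq2 called 1 and leaving out EV replicate 2 gave 5. This test has little power with lone libraries. On simulated counts it found 27 of 50 genes changed 3-fold and 7 of 50 changed 2-fold, so smaller differences between EV and OE were not detectable.

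Genes of cholesterol synthesis and uptake were higher in replicate 5. Of 25 tested genes, 19 were called higher and 0 lower, with a median log2 change of 0.45 (0.43 in EV and 0.45 in OE), against -0.002 over all genes. They span the pathway from HMGCS1 (0.39), an early enzyme of the mevalonate route, through MVK (0.64), MVD (0.60), IDI1 (0.41), FDPS (0.54) and the squalene enzymes FDFT1 (0.60) and SQLE (0.56) to LSS (0.50) and DHCR7 (0.45). The 6 members not called included CYP51A1 (0.22), SC5D (0.12), PMVK (0.23), STARD4 (-0.14) and TM7SF2 (-0.45).

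INSIG1 (ENSG00000186480, hg38 chromosome 7, 155297776 to 155310235, plus strand), the sterol-regulated brake on SREBF2, was at 68 and 65.5 CPM in replicate 4 and 116 and 110.1 CPM in replicate 5 (in the order EV and OE, as for all pairs below). In the first set it ranged from 131 to 151 (median 138). Both replicate-4 libraries thus lay below every other library, with replicate 5 in between (log2 change 0.76, SE 0.07, n = 2 per group, edgeR adjusted p = 5.22e-27). The same order held for SQLE, the monooxygenase that commits squalene to sterols, at 171 and 162 and 238 and 252 CPM against 299 to 333 (median 313) in the first set, and for FDFT1, squalene synthase, at 98.7 and 95.9 and 146 and 149 against 165 to 202 (median 193). In 18 of the 25 genes both replicate-4 libraries were the lowest of the 10, which held for 8.29% of all tested genes. INSIG1, SQLE and FDFT1 were the 3 members still called with the spread of all 10 libraries (adjusted p = 0.00453, 0.0221 and 0.034).

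SREBF2 itself, the transcription factor of the pathway, was at 185 and 175 CPM in replicate 4 and 259 and 256 CPM in replicate 5 (log2 change 0.52, SE 0.05), with 209 to 283 (median 278) in the first set. Its upstream sequence is shown because, among 18 matched cholesterol genes, it alone holds the letters CACCCCAC within the 250 bases before the start. These letters are the core of a sterol regulatory element, and bases farther upstream were not searched. The 250 bases before the start in RefSeq (GRCh38.p14, chr22:41832855-41833104, plus strand) are printed with the match in capitals. Both strands were searched, and the match reads on the printed strand only, 125 bases from the start.
SREBF2: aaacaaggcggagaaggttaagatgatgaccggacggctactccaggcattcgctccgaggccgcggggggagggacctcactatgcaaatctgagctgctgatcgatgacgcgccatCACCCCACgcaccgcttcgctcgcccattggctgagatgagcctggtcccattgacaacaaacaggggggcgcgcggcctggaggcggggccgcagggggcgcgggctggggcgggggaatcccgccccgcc
The letters occur in 2.37% of all 27195 RefSeq promoters of this length, in 2.8% of 785 matched promoters of genes called higher and in 1.97% of 761 of genes called lower. A match is a description of the letters and not a measured site.

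In fatty acid synthesis 9 of 22 genes were called higher and 0 lower, with a median of 0.17. SCD, the desaturase that makes oleate, was at 349 and 323 CPM in replicate 4 against 622 and 555 in replicate 5 and 644 to 884 (median 878) in the first set (log2 change 0.81, SE 0.05, adjusted p = 5.52e-57). FASN, the fatty acid synthase, had 0.43 (SE 0.05), ACACA, which makes its malonyl-CoA, 0.42 (SE 0.07), and the phosphatidate phosphatase LPIN1 0.53 (SE 0.07). SREBF1, the partner factor, had 0.16 (SE 0.06). SCD was the 1 fatty acid gene called with the spread of all 10 libraries. Of 13 LXR target and lipid export genes 4 were called higher, among them NPC1 (0.26) and ABCA1 (0.39).

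Targets of p53 were higher in replicate 5 as well, with 20 of 31 called higher, 0 lower and a median of 0.35 (0.35 in EV and 0.29 in OE). CDKN1A (ENSG00000124762, hg38 chromosome 6, 36676460 to 36687339, plus strand), which encodes the cell cycle inhibitor p21, was at 170.4 and 167 CPM in replicate 4 and 286 and 298 CPM in replicate 5. The first set had 325 to 359 (median 339) CPM, above both (log2 change 0.79, SE 0.05, adjusted p = 5.90e-46). BTG2, an antiproliferative gene that is also immediate-early, was at 15.5 and 15.9 CPM against 29.8 and 37.1 (log2 change 1.08, SE 0.12). Its first-set levels split by vector, with 46.7 to 58.2 CPM in EV and 30.1 to 31.6 CPM in OE.

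The called p53 targets covered several roles. The DNA repair gene DDB2 had 0.65 (SE 0.08), and the pro-apoptotic BBC3 and BAX had 0.65 (SE 0.15) and 0.50 (SE 0.06). MDM2, the ubiquitin ligase that degrades p53, had 0.46 (SE 0.06), ZMAT3 0.67 (SE 0.09) and PHLDA3, an inhibitor of AKT, 0.59 (SE 0.06). FAS (0.059), XPC (-0.048), SESN2 (0.18) and TP53I3 (-0.10) were among the 11 members not called. Both replicate-4 libraries were the lowest of the 10 in 17 of the 31 genes. CDKN1A, BTG2 and DDB2 were the 3 still called with the spread of all 10 libraries. The pro-apoptotic PMAIP1, on the list of apoptosis regulators, went the other way (284 and 315 CPM in replicate 4 and 222 and 231 in replicate 5, log2 change -0.40, SE 0.05). Of the 30 apoptosis regulators 3 were called higher and 6 lower.

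Immediate-early genes were among the largest differences. EGR1 (ENSG00000120738, hg38 chromosome 5, 138465490 to 138469315, plus strand), a zinc finger factor induced by ERK signalling, was at 4.38 and 3.32 CPM in replicate 4 and 14.7 and 19.9 CPM in replicate 5. In the first set it had 98 to 135 (median 110.2) CPM, so each second-set library was below each first-set library, and replicate 4 was lowest (log2 change 2.15, SE 0.18, adjusted p = 2.78e-29). FOS, a subunit of the AP-1 factor, followed the same order with 4.1 and 4.21, then 16.2 and 17.1, then 59.5 to 103 (median 79.8) CPM (log2 change 2.0, SE 0.18). Against the first set, EGR1 was -4.85 on the log2 scale in replicate 4 (SE 0.19) and -2.7 in replicate 5 (SE 0.15).

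The EGR1 promoter is shown because, among 25 matched immediate-early genes, it alone holds a CArG box within the 250 bases before the start. The CArG box is the element bound by serum response factor. Bases farther upstream were not searched, so the other genes may hold the box there. The 250 bases before its RefSeq start (GRCh38.p14, chr5:138465229-138465478, plus strand) hold 2 matches, in capitals, that end 96 and 74 bases from the start and read as a CArG box on both strands.
EGR1: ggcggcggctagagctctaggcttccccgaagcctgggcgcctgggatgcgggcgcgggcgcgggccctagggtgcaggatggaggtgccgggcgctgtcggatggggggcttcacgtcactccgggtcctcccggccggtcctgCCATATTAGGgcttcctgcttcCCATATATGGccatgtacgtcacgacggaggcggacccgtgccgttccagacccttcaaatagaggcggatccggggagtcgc
The box is found in 1.15% of all 27195 promoters, in 1.27% of 785 of the genes called higher and in 1.31% of 761 of the genes called lower.

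Of 33 immediate-early genes 13 were called higher, and KLF4 was the 1 called lower (-0.51, SE 0.10), with a list median of 0.19. JUN, the partner of FOS, was at 240 and 293 CPM in replicate 4 and 357 and 385 in replicate 5 (log2 change 0.48, SE 0.05). IER2 had 0.45 (SE 0.12), KLF2 0.63 (SE 0.09), NR4A1, an orphan nuclear receptor, 0.80 (SE 0.25) and ZFP36, which binds AU-rich RNA and speeds its decay, 0.37 (SE 0.12). FOSB (0.18), JUNB (0.13), DUSP1 (0.16), ATF3 (-0.12) and NR4A3 (-0.58) were not called. Among 22 genes of MAPK feedback and output, 6 were called higher and 2 lower. DUSP6, the ERK phosphatase, had 0.34 (SE 0.11) and PHLDA1 0.42 (SE 0.05), while DUSP5 had -0.26 (SE 0.07) and ETV5 -0.23 (SE 0.06). SPRY2 (0.19), SPRY4 (0.11), CCND1 (0.078) and MYC (0.02) were not called.

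**Figure D2:**
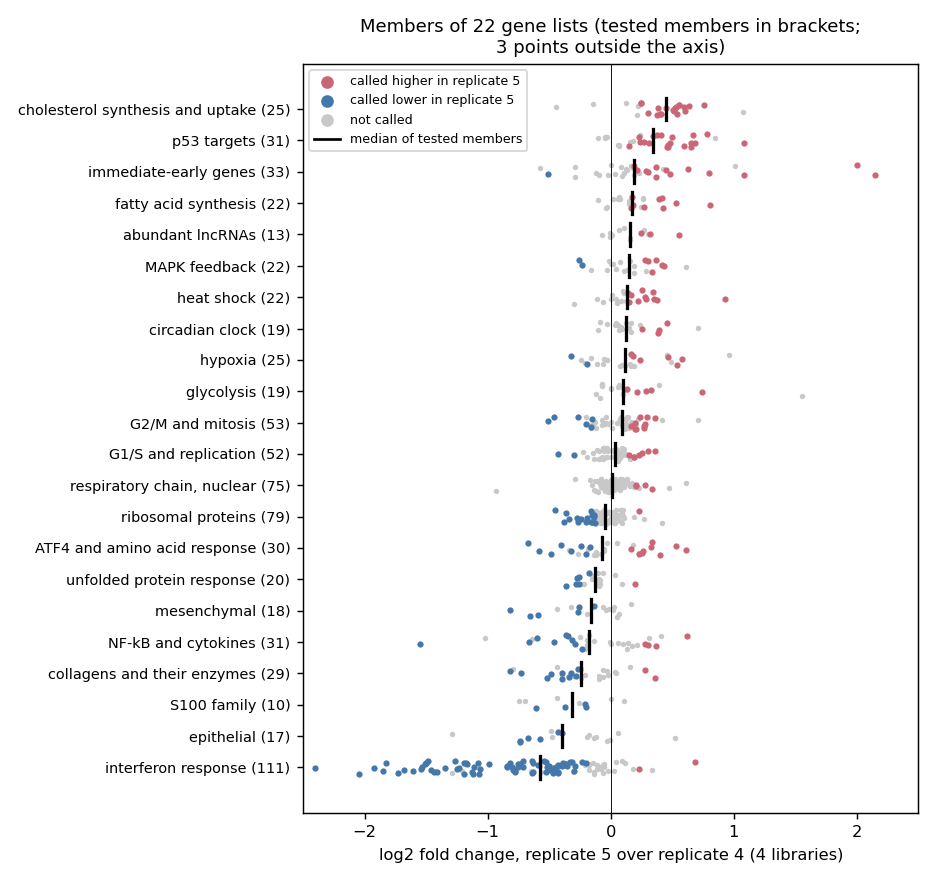
Each point is a tested member of a list, placed by its log2 fold change of replicate 5 over replicate 4. Red points were called higher, blue points lower and grey points neither, and the black bar is the list's median, from 0.45 for cholesterol synthesis to -0.58 for interferon response.

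Heat shock and some metabolic lists had smaller shifts to higher levels. Of 22 heat shock genes 11 were called higher and 0 lower (median 0.13), among them the co-chaperones DNAJB1 (0.25, SE 0.06) and DNAJB6 (0.34, SE 0.06) and the inducible chaperone HSPA1A, with 2.05 and 1.84 CPM in replicate 4 and 3.89 and 3.54 in replicate 5. HSPA1A and HSPA1B are near-identical copies whose reads may be split between them. Glycolysis had 5 of 19 higher and 0 lower, led by ENO2 (0.74, SE 0.10) and HK2 (0.33, SE 0.06), while GAPDH (-0.067) and LDHA (-0.069) were not called. Hypoxia genes had 6 higher and 2 lower of 25. VEGFA, the endothelial growth factor, was at 101 and 104 CPM against 139.6 and 143 (log2 change 0.46, SE 0.06), whereas DDIT4 was lower (-0.33, SE 0.08).

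Single genes of other pathways stood out on the higher side. HES1, a repressor downstream of Notch, was at 31.4 and 27.7 CPM in replicate 4 and 58.1 and 60.6 in replicate 5 (log2 change 1.01, SE 0.09), with 103 to 137 (median 120) in the first set. The Notch list was otherwise mixed, with 2 of 14 higher and 2 lower, including NRARP (-0.77) and the ligand JAG1 (-0.34) on the lower side. ACO1, which binds iron-responsive RNA elements, had 0.58 (SE 0.06) and TFRC, the transferrin receptor, 0.21 (SE 0.05). CSF1, the macrophage growth factor, was at 61.2 and 65.4 CPM against 101 and 93.2 (log2 change 0.62, SE 0.07). Clock genes had 4 of 19 higher and 0 lower, NPAS2 (0.38) and NR1D1 (0.46) among them, and FOXO targets 3 of 19 and 0. Abundant long non-coding RNAs had 3 of 13 and 0, namely NEAT1 (0.32), PVT1 (0.55) and NORAD (0.25). The median of that list was -0.02 in EV and 0.21 in OE. Of all tested genes 7.28% were called higher and 7.1% lower, and on lists this short a few genes make up the count.

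On the lower side, 76 of 111 interferon response genes were called lower and 2 higher, with a median of -0.58. ISG15, a ubiquitin-like modifier, sets the scale with 291 and 399 CPM in replicate 4, 109 and 127 in replicate 5 and 139 to 208 (median 162) in the first set. Here replicate 4 was the highest and replicate 5 the lowest of the 10 libraries (log2 change -1.54, SE 0.05). The 2 higher genes were SOCS1 (0.68) and SOCS3 (0.23), which encode inhibitors of cytokine signalling. Nucleic acid sensing had 11 of 18 lower, antigen presentation 14 of 22, and the list of interferon ligands and receptors 1 of 13.

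Beyond interferon, 6 of 17 epithelial genes were called lower in replicate 5 and 0 higher, with a median of -0.39. KRT8 had 157 and 162 CPM against 92.8 and 98.2 (log2 change -0.74, SE 0.06), while its partner KRT18 had a change of 0.057 that was not called. The other 5 called members were KRT7 (-0.74), KRT80 (-0.57), the tight junction protein CLDN1 (-0.43) and the desmosome genes DSC2 (-0.67) and PKP3 (-0.39). Outside the list, MAL2 (ENSG00000147676, hg38 chromosome 8, 119165034 to 119245673, plus strand), a membrane protein of apical transport in polarised epithelium, was at 37.5 and 37.8 CPM in replicate 4 and 9.75 and 7.78 CPM in replicate 5. The first set had 8.54 to 11.8 (median 10.2) CPM, so replicate 4 stood apart and replicate 5 lay at or just below the other libraries (log2 change -2.11, SE 0.13, adjusted p = 7.22e-55). KRT86 was at 31.7 and 30.2 CPM against 11.4 and 12.7, with 5.29 to 7.96 (median 5.61) in the first set (log2 change -1.36, SE 0.13), and the related hair keratin KRT81, which shares sequence with KRT86 so that reads may be split between them, at 1075 and 1117 CPM against 735 and 754 (log2 change -0.56, SE 0.05). KRT15 was higher in replicate 5 (15.8 and 14.9 against 27.8 and 28.1 CPM). MAL2, KRT86, KRT81 and KRT15 are on no list: MAL2 and KRT86 were named as 2 of the largest falls, and KRT81 and KRT15 after their values were seen.

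Of 29 collagens and collagen-modifying enzymes 10 were called lower and 2 higher, with a median of -0.24. COL6A1, a chain of microfibrillar collagen VI, was at 476 and 529 CPM in replicate 4 and 280.4 and 291 CPM in replicate 5, with 300.4 to 452 (median 377) in the first set (log2 change -0.81, SE 0.05, adjusted p = 2.34e-56). The basement membrane chain COL4A1 had -0.73 (SE 0.05), COL4A2 -0.40 (SE 0.05), COL5A1 -0.52 (SE 0.08) and the collagen chaperone SERPINH1 -0.32 (SE 0.05). COL16A1 (0.36) and COL27A1 (0.27) were the 2 higher chains. SPARC, a matrix glycoprotein, was at 1048 and 1008 CPM against 675 and 631, and in the first set at 564 to 643 (median 612) CPM (log2 change -0.66, SE 0.05).

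The 18 mesenchymal genes had 7 lower and 0 higher (median -0.16), among them TNC (-0.59), FBN1 (-0.82) and VIM (-0.13), while the transcription factors ZEB1 (0.026), ZEB2 (0.018), SNAI2 (-0.011) and TWIST1 (0.16) were not called. Epithelial and mesenchymal lists alike thus had called genes in the lower direction only. Among 26 integrins, laminins and related genes 8 were lower and 4 higher, among them ITGA2 (-0.70) and HSPG2, the proteoglycan perlecan (-0.66), against LAMA3 (0.34) and ITGB5 (0.22). Of 26 matrix proteases and inhibitors 6 were lower and 1 higher, led by PLAU, the urokinase activator, at 1333 and 1404 CPM against 988 and 1007 (log2 change -0.46, SE 0.05). The S100 family had 4 of 10 lower, with S100A2 (-0.60) and S100A6 (-0.37) first. The 4 tested fibroblast markers had a median of -0.83 and 1 called lower, THY1, at 0.683 and 0.652 CPM in replicate 4 and 0.0638 and 0.116 in replicate 5. These replicate-5 values lie below the floor of 0.174 to 0.19 CPM. The summed level of all 10 fibroblast markers was 8.54 and 9.72 CPM in replicate 4 and 8.22 and 7.55 CPM in replicate 5.

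Targets of TGF-beta and BMP had 5 of 26 lower and 1 higher. The matrix protein TGFBI was at 113 and 116 CPM in replicate 4 and 63 and 68.2 in replicate 5 (log2 change -0.81, SE 0.07), and the inhibitor of differentiation ID3 at 66.4 and 64 against 38.1 and 37.5 (-0.79, SE 0.08). ID1 (-0.057) and SMAD7 (-0.10) were not called. On the YAP and TAZ list 4 of 24 were lower and 4 higher, with IGFBP3, an IGF-binding protein, at 448 and 391 CPM against 248 and 241 and 208 to 237 (median 220) in the first set (log2 change -0.78, SE 0.05). The canonical targets CTGF (0.016) and CYR61 (-0.022) had small changes that were not called.

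On the NF-kB and cytokine list 9 of 31 genes were called lower, 4 higher and 18 neither (median -0.17). CCL5, a chemokine that interferon also induces, was at 6.54 and 7.94 CPM in replicate 4 and 2.17 and 2.79 in replicate 5 (log2 change -1.55, SE 0.26). IL6 had 40.2 and 52.8 CPM against 28.9 and 32.3 (-0.60, SE 0.10), CXCL8 115 and 169 against 107 and 118 (-0.32, SE 0.06), and CXCL1 -0.36 (SE 0.06). CXCL8 was highest in OE replicate 4, while the other 3 second-set libraries lay close together. NFKBIA (-0.14), TNFAIP3 (-0.19) and NFKB1 (0.17) were not called, and IER3 (0.37) and CXCL2 (0.30) were higher. On the acute phase and complement list, where 3 of 12 were lower and 1 higher, complement C3 was at 194 and 196 CPM against 84 and 104 (log2 change -1.06, SE 0.06), and the protease inhibitor SERPINA1 had -0.76 (SE 0.07).

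**Figure D3:**
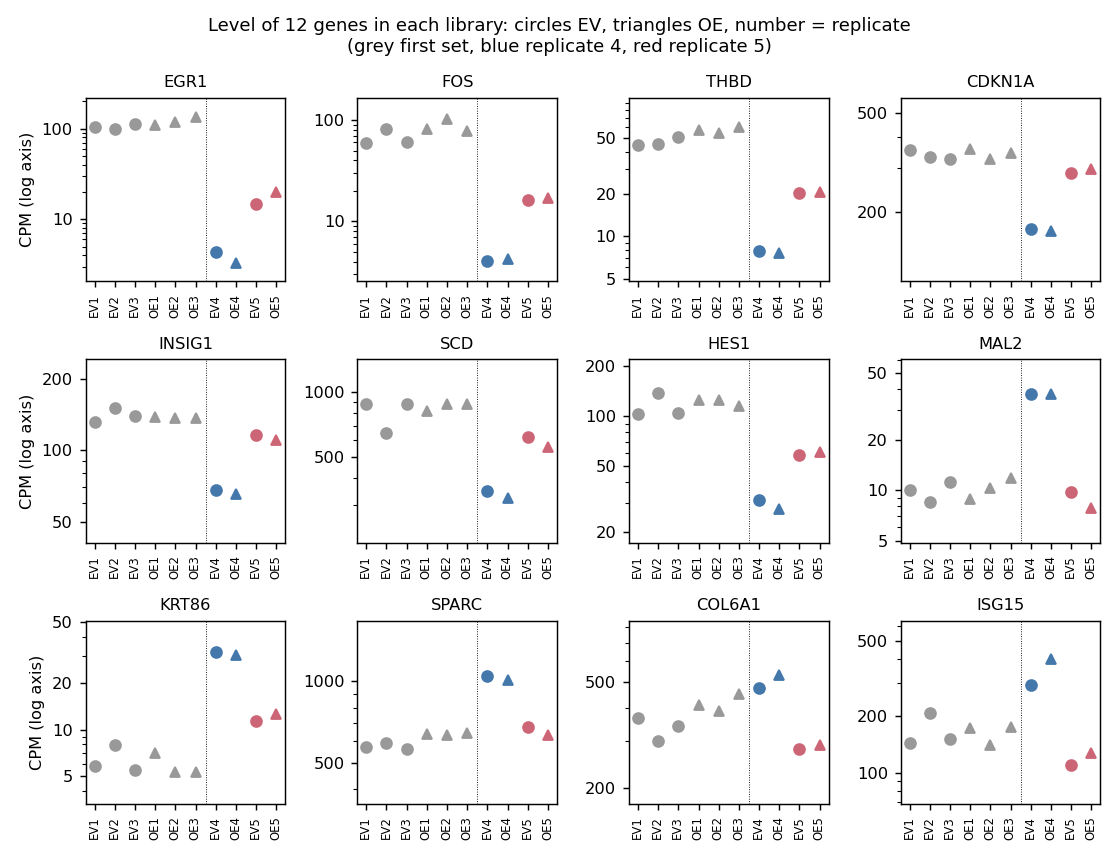
Levels of 12 genes in CPM on log axes for all 10 libraries, with EV as circles, OE as triangles, the first set in grey, replicate 4 in blue and replicate 5 in red. Within the second set EV and OE of a number lie close together, and for EGR1, FOS, THBD, HES1, CDKN1A, INSIG1 and SCD both numbers lie below the first set.

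Stress pathways of the endoplasmic reticulum and of amino acids moved in part. Of 20 unfolded protein response genes 6 were lower and 1 higher (median -0.13). HSPA5, the main chaperone of the endoplasmic reticulum, was at 1715 and 1766 CPM in replicate 4 and 1382 and 1328 in replicate 5, with 1440 to 2007 (median 1610) in the first set (log2 change -0.36, SE 0.04), and CALR had -0.29 (SE 0.04). On the ATF4 and amino acid list 9 of 30 were higher and 8 lower. The transporter SLC7A5 (0.34), GDF15 (0.53) and CBS (0.61) were higher, while PCK2 (-0.68), CHAC1 (-0.58) and PSAT1 (-0.20) were lower, and ATF4 (-0.03) and ASNS (-0.27) were not called. Of 20 tRNA synthetases 5 were lower, WARS (-0.43) and GARS (-0.34) first. NRF2 targets split into 5 higher and 4 lower of 25, with ABCC3 (22 and 24.4 against 10.2 and 11 CPM, log2 change -1.13) and AKR1C3 (-0.89) lower and TXNRD1 (0.23) higher, while NQO1 (0.028) and GCLC (-0.16) were not called. Of 5 tested metallothionein and zinc genes 3 were lower, among them MT2A at 760.2 and 1121 CPM against 694 and 701. In the first set MT2A had 938 to 1751 (median 1060) CPM. OE replicate 4 lay within that range, and the other second-set libraries lay below it.

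Ribosomal protein genes had 18 of 79 called lower and 1 higher, but with a median of 0.01 in EV and -0.09 in OE. RPS29 was at 77.5 and 148 CPM in replicate 4 and 81.4 and 76.9 in replicate 5. Of these 4 libraries OE replicate 4 was high, and the log2 change without it was 0.06 against -0.46 with it. In the first set RPS29 had 94.7 to 179.5 (median 120.5) CPM. The mitochondrially encoded genes had 6 of 15 higher and 2 lower, with a median of 0.20 in EV and 0.002 in OE. MT-CO1, a subunit of cytochrome oxidase, was at 9251 and 8457 CPM against 11560 and 10210 (0.29, SE 0.04), and the 2 lower genes were the ribosomal RNAs MT-RNR2 (7556 and 6964 against 5951 and 5543 CPM, log2 change -0.34) and MT-RNR1 (-0.31). The share of counts from these 2 RNAs went with replicate number, as given above, and its part in the other results was not tested.

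The remaining lists had few called genes or called genes in both directions. Nuclear-encoded respiratory chain genes had 4 of 75 higher and 0 lower, the proteasome 2 of 31 and 1, autophagy 0 of 24 and 3, small RNA processing 0 of 13 and 0, and ribosome biogenesis 0 of 32 and 3. Genes of G1/S and replication had 7 of 52 higher and 2 lower (median 0.03), with TYMS (0.30) and PCNA (0.23) higher, and G2/M genes 10 of 53 and 6 (median 0.09), with UBE2S (0.36) and FOXM1 (0.29) higher and KIF20B (-0.51) and CENPF (-0.26) lower. Lysosome genes had 5 of 40 higher and 7 lower, actin and SRF targets 6 of 25 and 3, Wnt genes 4 of 16 and 2, and small nucleolar RNA hosts 3 of 18 and 3. Receptor tyrosine kinase genes had 3 of 26 higher and 4 lower, with EGFR (-0.24) lower and RET (-0.16) not called, iron handling 3 of 12 and 2, glucocorticoid targets 1 of 13 and 3, histones 0 of 17 and 1, and squamous genes 1 of 4 and 0. Of 7 tested thyroid genes PAX8 was the 1 called, higher in replicate 5 (375 and 378 against 434 and 429.8 CPM). None of 2 leukocyte, 3 endothelial and 1 neuroendocrine markers tested was called.

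**Figure D4:**
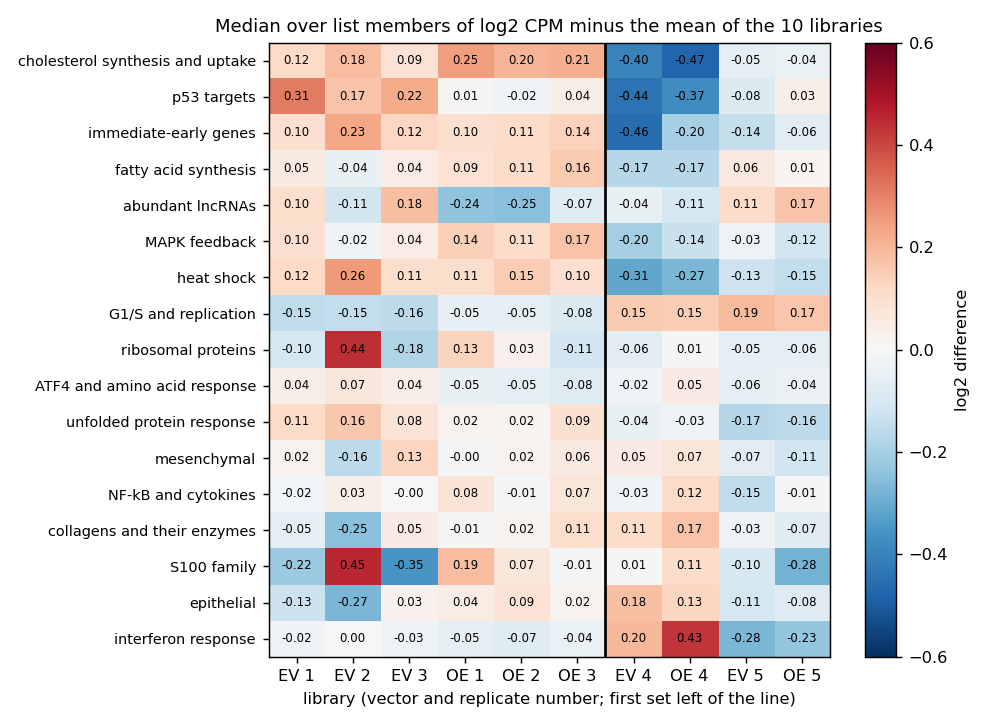
For 17 lists (rows) and 10 libraries (columns), the median over members of the log2 CPM minus the gene's mean over the 10 libraries, with the first set left of the line. EV and OE replicate 4 are lowest for cholesterol synthesis (-0.40 and -0.47) and p53 targets (-0.44 and -0.37), with EV and OE replicate 5 above them (-0.05 and -0.04, and -0.08 and 0.03).

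Outside the interferon lists, the largest differences included genes of several kinds. On the higher side were PLXNA4, a semaphorin co-receptor (0.228 and 0.593 against 3.57 and 3.6 CPM, log2 change 3.13, SE 0.48), the AMP deaminase AMPD3 (1.75, SE 0.41), PDPN, the membrane mucin podoplanin (3.58 and 3.61 against 10.9 and 9.53 CPM, 1.5, SE 0.21), and THBD, thrombomodulin (7.91 and 7.64 against 20.5 and 20.6 CPM, 1.4, SE 0.15). THBD was at 44.8 to 60.5 (median 53.1) CPM in the first set. MAMDC4 (1.56), STAP2 (1.39), MARCHF4 (1.29, listed under a date-like name and matched by its identifier), SLC37A2 (1.25), GALNT16 (1.2) and AC145207.5 (1.25) completed the group. SNRPG (1.5), RGPD5 (1.39) and IKBKGP1 (1.26) have near-identical copies that could share reads, and their values are uncertain.

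On the lower side, FGB, the fibrinogen beta chain, was at 4.15 and 3.56 CPM in replicate 4 and 1.02 and 1.05 in replicate 5 (-1.89, SE 0.39). ASS1, which makes argininosuccinate, had 16.5 and 13.6 against 5.8 and 5.29 CPM (-1.44, SE 0.18), and the matricellular gene NOV 9.16 and 11.9 against 3.76 and 4.3 CPM (-1.38, SE 0.21), below its first-set range of 7.69 to 10 (median 8.71). IL7R (-1.53), IL4I1 (-1.34), RHEX (-1.16) and AC104024.2 (-1.22) lay at 1.1 to 6.49 CPM in the second set. CCL3L1 (-3.07), SERF1B (-2.68), RPL5P34 (-1.64) and SPCS2P4 (-1.33) are copies or pseudogenes with near-identical relatives and are uncertain. Of the most abundant genes that were lower, FTL had -0.15 (SE 0.04) and NCL -0.12 (SE 0.04), and of those that were higher MT-CO3 had 0.25, MT-ND4 0.15, MT-CO2 0.15 and MT-ATP6 0.30.

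Both replicate numbers were also set against the first set, which they share, so the values are given side by side only, and the set cannot be told apart from the replicate number. Replicate 4 had 1981 called genes of 15404 (12.9%; 973 higher and 1008 lower) and replicate 5 had 1049 (6.81%; 536 and 513). Leaving out EV replicate 2, which differed most from the other libraries, gave 4838 and 3807. Without EV or OE replicate 4 the first count was 130 and 138, and without EV or OE replicate 5 the second was 22 and 10. Without 1 OE library of the first set they were 1142 to 1274 and 376 to 501. The median of cholesterol genes was -0.59 in replicate 4 and -0.19 in replicate 5, that of p53 targets -0.55 and -0.22, that of immediate-early genes -0.45 and -0.23, and that of heat shock genes -0.43 and -0.31. Relative to the mean of the 10 libraries, the p53 list split by vector in the first set, at 0.17 to 0.31 in EV and -0.02 to 0.04 in OE. OE replicate 5 (0.03) lay within the OE range, and EV replicate 5 (-0.08) lay below the EV range. Collagens had 0.24 and 0.01, epithelial genes 0.20 and -0.04, and interferon response genes 0.31 and -0.22. Genes of G1/S and replication lay above the first set in both (0.26 and 0.28) and histones below it in both (-1.15 and -1.16). HMOX1, heme oxygenase, was at 271 and 414 and 344 and 420.3 CPM against 719 to 1222 (median 1008), and LGR5 at 7.85 and 6.28 and 9.88 and 10.4 against 27.6 to 35.4 (median 30), so that the distance to the first set exceeded that between the numbers.

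The position of genes on the chromosomes gave a further pattern, noticed in the values and described without a test. Among genes with a mean log2 CPM of at least 3, the 311 on chromosome 10 beyond 40 Mb had a median log2 change of -0.15 (-0.12 in EV and -0.15 in OE), and 246 of them (79.1%) lay below 0. The 84 genes of chromosome 10 up to 40 Mb had a median of 0.0004 with 50% below 0, and 9529 genes of other chromosomes a median of 0.003 with 49.4% below 0. Of 243 windows of 10 Mb with at least 15 genes, the 3 lowest medians were the 3 from 80 to 110 Mb of chromosome 10 (-0.18, -0.20 and -0.16). Without the 5 interferon-list genes among the 311, the median was -0.14.

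Per library, the median of these 311 genes relative to their mean over 10 libraries was -0.11 in EV replicate 5 and -0.14 in OE replicate 5, against 0.04 and 0.01 in replicate 4 and 0.02 to 0.07 in the first set. Here the replicate-5 libraries were the 2 lowest, while for the cholesterol and p53 lists the replicate-4 libraries were. Of the 311 genes 90 were called lower and 8 higher, against 761 lower and 942 higher of the 9529 genes of other chromosomes. Of the 84 genes of chromosome 10 up to 40 Mb, 8 were lower and 3 higher. NCOA4 (378 and 369 against 332 and 313 CPM, log2 change -0.21) and VCL, the adhesion protein vinculin (-0.30), were lower, while SCD on the same arm was higher. RET (-0.16) and CCDC6 (-0.20), the fusion partner of RET in RET/PTC1, were not called. CCDC6 was not among the 311, which hold only genes with a mean log2 CPM of at least 3. PLAU, KIF20B, DDIT4 and DUSP5, named above as lower members of their lists, also lie in this stretch. Whether their changes go with the stretch or with their lists was not tested. DNA was not measured. Leaving all 460 tested genes of the stretch, at any abundance, out of the fit gave 924 higher and 899 lower genes.

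**Figure D5:**
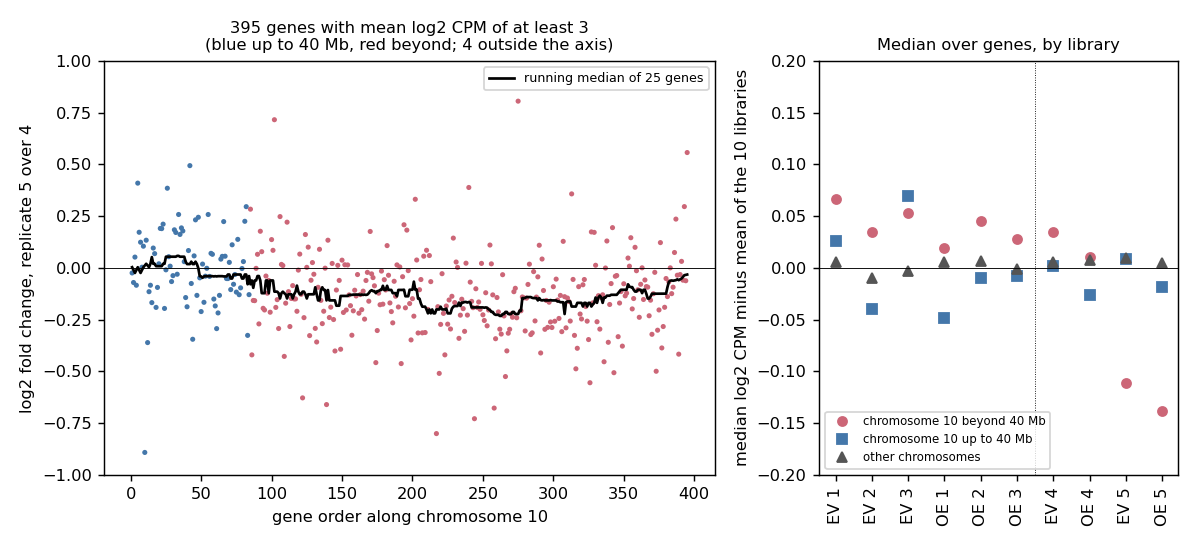
Left, log2 fold change of replicate 5 over replicate 4 for 395 genes in their order along chromosome 10, with a running median of 25 genes. Right, the median over genes in each library relative to the mean of the 10 libraries, where the genes beyond 40 Mb are at -0.11 and -0.14 in EV and OE replicate 5 and above 0 in the other 8.

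Other gene properties went little with the change. Across genes, Pearson's r of the log2 change was 0.05 with GC content (14414 genes), 0.002 with gene length and 0.01 with abundance (14419 genes), where all genes share the same 4 libraries. By annotation, 15.9% of 12243 protein-coding genes, 6.81% of 470 long intergenic RNAs and 3.36% of 595 antisense RNAs were called. Processed pseudogenes (380) had a median of -0.12 and antisense RNAs 0.11, and reads of a gene and its antisense partner or of a pseudogene and its parent may not be separated where the counting did not use strand.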

How the data were processed

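RNA of 10 libraries was measured, of which 4 (replicates 4 and 5 of EV and OE) enter the main comparison. Per the labels' protocols, TRIzol-extracted total RNA was treated with DNase I, and NEBNext Ultra RNA libraries were sequenced in paired ends on a NovaSeq instrument. The submitters' processing notes name hg38, DESeq2 1.20.0, featureCounts 1.5.0-p3, HISAT2 2.0.5, fastp and CASAVA 1.8. For the annotation, the role of each tool and the use of strand, the sources used here give nothing. The authors deposited, per the file headers, raw read counts and lengths for 58735 genes. Another 14 deposited columns, of FPKM or normalized values, were left out.

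The comparison, gene lists and tests were chosen with earlier results of these data known. Counts of the 4 libraries were fitted with edgeR 4.0.16 in R 4.3.3 (quasi-likelihood test, TMM, filterByExpr, vector and replicate number as terms), and a gene was called at a Benjamini-Hochberg adjusted p under 0.05. The prior degrees of freedom came out infinite, so the spread follows abundance and not the single gene. Changes are log2 values of replicate 5 over replicate 4 with the SE implied by the test, and log2 CPM used a prior count of 2. In fits over 10 libraries the lone libraries are assumed to vary like the first set. DESeq2 1.42.0, voom of limma 3.58.1, other scaling, filters, offsets and leaving out libraries were alternatives. The 56 lists held 1613 entries, 1612 of them matched by symbol.

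Named genes are the 15 largest changes per direction among called genes outside the interferon lists with a symbol, a mean log2 CPM of at least 1 and the same sign in EV and OE, the 5 most abundant called genes per direction, 5 interferon genes and the 4 lowest-p members of every list. Further members show each pathway, and some genes that the rule names are not reported here. On simulated counts for 14172 genes the main test found 32 of 50 genes changed 1.25-fold and 50 of 50 changed 2-fold, with 3 false among 179 calls. These counts were drawn gene by gene with the spread fitted to the 4 libraries and without any shared library effect. They therefore do not show how many calls in the data would hold. Counts per library were 15761474 to 18066559, and the floor of 3 counts covers counting error only.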

Additional observations from a re-analysis of the deposited data

Results flagged for a closer look

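For each list and for the genes of chromosome 10, the EV and the OE libraries were searched for 1 library far from the other 4 of its group (Dixon's 95% critical value for 5 samples), a rule that chance meets in about 1 in 20 groups. With 54 lists of at least 3 tested members, some groups would meet it by chance alone.

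The level of the p53 target list in OE replicate 4 was -0.37 (median over members of log2 CPM minus the mean of the 10 libraries), far below the other 4 OE libraries at -0.02 to 0.04.

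The genes of chromosome 10 beyond 40 Mb were lowest in replicate 5 of both vectors, at -0.11 in EV replicate 5, with the other 4 EV libraries at 0.03 to 0.07, and at -0.14 in OE replicate 5, with the other 4 OE libraries at 0.01 to 0.05. This stretch was picked after its low values in replicate 5 were seen, so meeting the rule adds no support.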

How the results depend on the processing

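No paired analysis was possible because the replicate number is itself the factor compared, with the vector already a term. Under every alternative with all 4 libraries, the 2074 genes that could be tested kept their sign. The counts of 1050 higher and 1024 lower genes became 200 and 176 with DESeq2, 624 and 641 without the vector term, and 39 and 57 with the spread of all 10 libraries. They became 493 and 510 when EV replicate 2 was left out of that spread, an alternative chosen after seeing the data, as was leaving out the genes of chromosome 10 beyond 40 Mb. Without single libraries they were 0 to 3 and 0 to 10. Other scaling, filters, voom, and GC and length offsets stayed within 1.5 times. The interaction count of 0 became 1 with DESeq2 and 7 without a filter, and 0 to 5 without single libraries. The count against the first set without single libraries was 130 to 4838 for replicate 4 and 10 to 3807 for replicate 5, which had 1594 without a filter. Signs that turned without single libraries were those of RPS29 (0.06384 to 0.06439), RPL38 (0.01973 to 0.02028), and the list medians of thyroid genes (0.003759), receptor tyrosine kinases (0.003269 to 0.003638) and abundant long non-coding RNAs (-0.02223 to -0.02168). Without OE libraries the fit rests on EV alone and without EV on OE alone; the cause of each change was not tested otherwise. Depth limits what can be said of genes near the floor of 0.174 to 0.19 CPM.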
